A study of Drosophila melanogaster with 22 samples.

Results

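Nuclear pore and nuclear transport genes were followed in S2 cells, a cultured blood-cell-like line from Drosophila melanogaster embryos, in which one of the 4 proteins of the kinase module of Mediator, a transcriptional coactivator, had been depleted. The members were every gene whose symbol begins with Nup and a digit, plus 13 named genes of the Ran cycle, the karyopherins, mRNA export and the pore. Of these, 31 genes had a probe set with a single annotated symbol, and 30 lay at or over a floor of log2 4 (an intensity of 16) on at least 2 arrays. They stand among 5961 genes tested in all. Nup160 lay below the floor on all 22 arrays and was not tested, and sbr, Gp210 and Nup58 had no probe set with a single symbol in the annotation used here. Each of the 30 was over the floor on all 22 arrays.

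The nuclear pore complex is the channel through which proteins and RNA pass the nuclear envelope. Its scaffold consists of outer rings, built from the Y-shaped Nup107 complex, and an inner ring, while flexible nucleoporins rich in phenylalanine-glycine repeats line the channel. Karyopherins carry cargo through it: importins bring proteins in, exportins take them out, and the small GTPase Ran gives the direction because its GTP form is kept in the nucleus. Messenger RNA leaves by a separate route, through the Nxf1-Nxt1 carrier.

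All cells received 20 µg of double-stranded RNA (dsRNA), which S2 cells cut into short RNAs that destroy matching transcripts, and were collected after 72 h. The groups were Cdk8 dsRNA (2 arrays), CycC dsRNA against Cyclin C (4), Med12 dsRNA (4), Med13 dsRNA (4) and 8 controls, of which 4 had GFP dsRNA and 4 Luc dsRNA against luciferase. The labels name no separate cultures, so the p-values cover the spread among these arrays only, and part of it may be technical. Values are the deposited array intensities as log2, and a difference is the knockdown mean minus the mean of the GFP and Luc means, with its standard error (SE) from a limma fit over all genes. A gene passed at an adjusted p under 0.05.

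Each targeted transcript was lower in its own group, at 14.4% of controls for Cdk8, 3.56% for CycC, 9.98% for kto (the Med12 gene) and 80.6% for skd (the Med13 gene). Depletion of the skd transcript was therefore slight on this probe set. With Med12 dsRNA skd stood at 121% of controls (adjusted p = 0.000228 by limma). Protein was not measured. Of 10 haemocyte markers 7 were over the floor on all 22 arrays, while NimC1 was below it on all. The haemocyte markers summed to intensities of 35600 to 35900 with Cdk8 dsRNA and 33800 to 35500 with CycC. The sums were 27300 to 28300 with Med12, 29700 to 32500 with Med13 and 32900 to 36200 in controls. They rest mostly on the brightest markers, Col4a1 (log2 13.8 to 14.2), Hml (12.4 to 12.9) and srp (11.9 to 12.6). Dim markers such as He (3.04 to 6.78) add little, so the sums do not describe each of the 10. The 2 muscle, 3 fat body and 3 midgut markers with a named probe set were below the floor on every array, and of 3 neuron markers elav was over it. In bulk RNA a change in every cell and a change in some of the cells cannot be told apart.

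Treatment with Cdk8 or CycC dsRNA was followed by small rises of nuclear pore genes, and treatment with Med12 or Med13 dsRNA mostly was not. With Cdk8 dsRNA 10 of the 30 members rose, where 10.6% of all tested genes did, and none fell, where 8.07% of all tested genes did. With CycC dsRNA 12 of the 30 rose, against a background of 13.4%, and none fell, against 10.9%. With Med12 dsRNA none rose, against a background of 26.5%, and 2 fell, against 15.5%. With Med13 dsRNA 2 rose, against 21.0%, and 2 fell, against 11.2%. At an unadjusted p under 0.05 by limma, 18 were higher and 0 lower with Cdk8 dsRNA, 14 and 0 with CycC, 1 and 2 with Med12, and 4 and 3 with Med13. Of all 5961 tested genes, 1857, 2084, 2985 and 2469 were under that level in either direction, in the same order. In all, 15 members passed in none of these 4 comparisons. The 4 comparisons share their control arrays, so their counts are not independent of one another.

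The sizes were small. The median difference over the 30 members was 0.13 with Cdk8 dsRNA, 0.09 with CycC, -0.04 with Med12 and 0.02 with Med13 on the log2 scale, beside medians over all tested genes of 0.02, 0.01, 0.04 and 0.03 in the same order. The largest single difference among the members was 0.38, a level at 130% of controls. The Cdk8 count rests on few arrays: it was 3 without the Cdk8 1 array, 3 without the Cdk8 2 array and 3 with GFP controls alone, but 9 with Luc controls alone. The Med12 count was 4 with the median of every array set equal and 5 after quantile normalization, of which 1 was then higher.

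**Figure D1:**
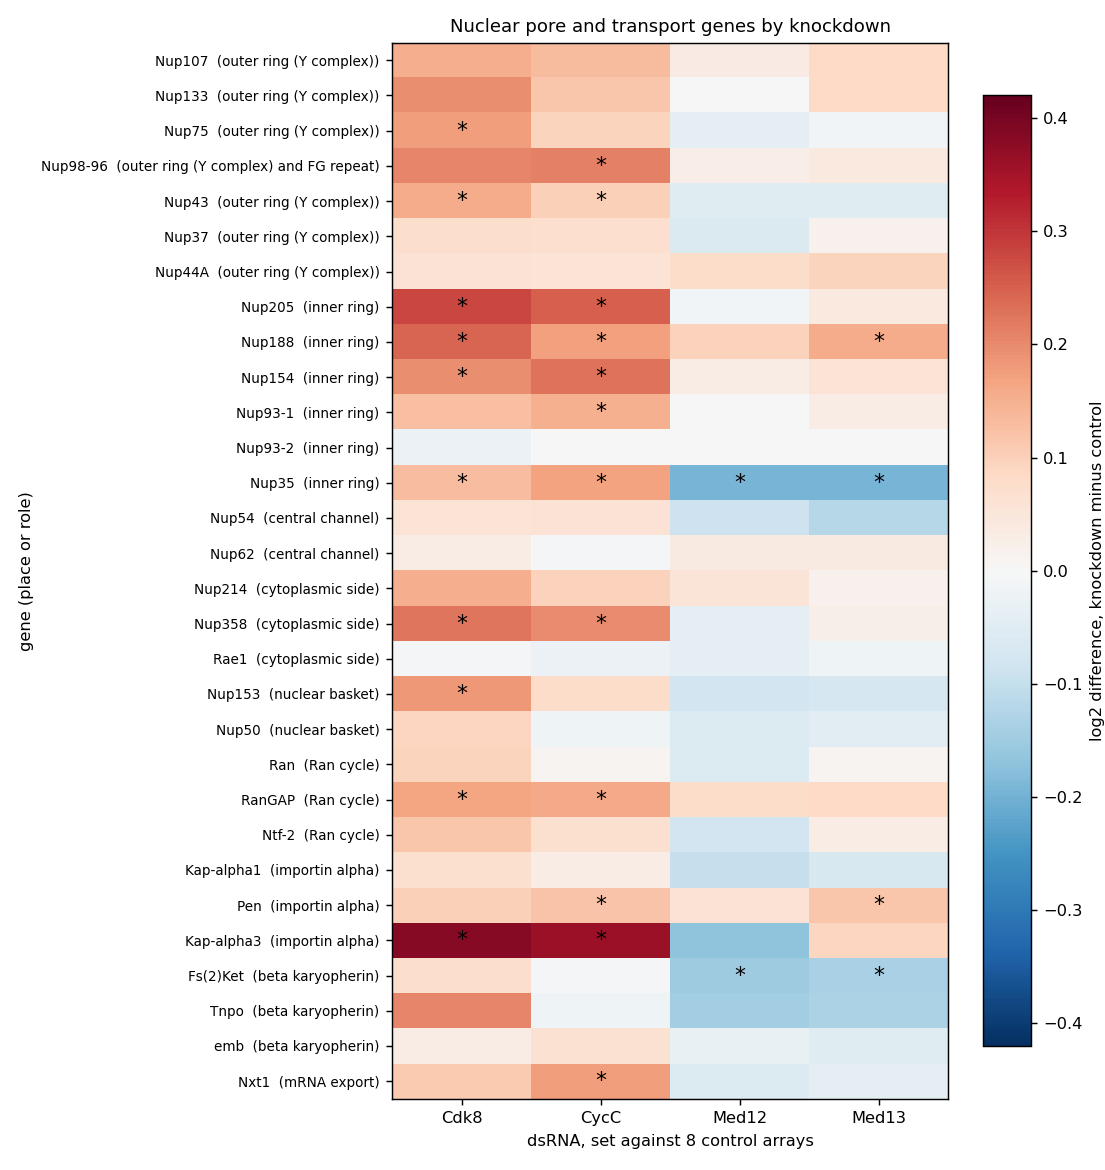
Log2 difference between each knockdown and the 8 control arrays for the 30 members, ordered by their place in the pore or role in transport. Red is higher and blue lower than controls, and an asterisk marks an adjusted p under 0.05. The Cdk8 column has 10 asterisks and the CycC column 12, all on red, while the Med12 column has 2, both on blue.

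The median over the 30 members of the difference from the control mean was also taken for each array. Both Cdk8 arrays stood at 0.14 and 0.12, and the 4 CycC arrays at 0.04, 0.07, 0.14 and 0.15. The Med12 arrays lay between -0.04 and 0.03, the Med13 arrays between -0.06 and 0.07, and the 8 controls between -0.05 and 0.04. The Cdk8 and CycC arrays therefore lay above every control, the CycC 1 array by little. As groups the Med12 and Med13 arrays overlapped the controls. The Med13 3 (0.07) and Med13 4 (0.05) arrays, however, lay above every control and above CycC 1. Medians over all tested genes spanned -0.01 to 0.03 on the Cdk8 and CycC arrays, 0.00 to 0.05 on the Med12 and Med13 arrays and -0.04 to 0.02 in controls.

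**Figure D2:**
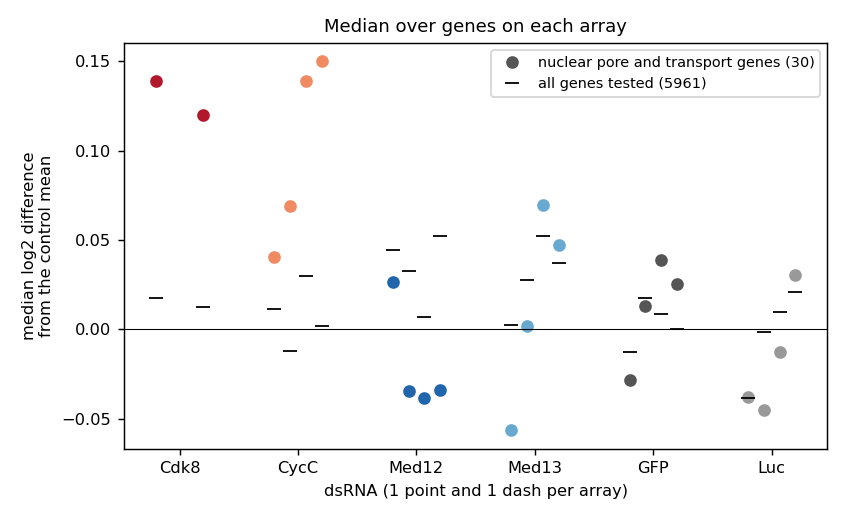
Median over the 30 nuclear pore and transport genes (points) and over all 5961 genes tested (dashes) of the log2 difference from the control mean, 1 point and 1 dash per array. The 2 Cdk8 points, 0.14 and 0.12, sit above all 8 control points, which reach 0.04.

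The inner ring is a scaffold that joins Nup205 and Nup188, a pair of large related proteins, with Nup93, Nup154 (Nup155 in vertebrates) and Nup35. Of its 6 measured genes 4 rose with Cdk8 dsRNA (against 10.6% of all tested genes) and 5 with CycC dsRNA (13.4%). With Med12 dsRNA 1 fell (15.5%), and with Med13 dsRNA 1 rose (21.0%) and 1 fell (11.2%). The median difference over the 6 was 0.16 with Cdk8, 0.17 with CycC, 0.00 with Med12 and 0.04 with Med13 dsRNA.

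Nup205 was at log2 11.08 and 11.07 on the Cdk8 arrays, at 10.98, 11.05, 11.02 and 11.12 on the CycC arrays, at 10.83, 10.83, 10.82 and 10.65 on the Med12 arrays and at 10.73, 10.82, 10.91 and 10.88 on the Med13 arrays, with a control range of 10.76 to 10.81 (median 10.79). All 6 Cdk8 and CycC arrays lay above all 8 controls and above all 8 Med12 and Med13 arrays. The rise was 0.28 ± 0.05 with Cdk8 dsRNA, to 121% of controls (adjusted p = 0.000302), and 0.25 ± 0.04 with CycC dsRNA, to 119% (adjusted p = 4.65e-05). With Med12 and Med13 dsRNA the difference was -0.01 ± 0.04 and 0.04 ± 0.04.

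Nup188 read 9.08 and 9.03 with Cdk8 dsRNA, 8.99, 8.94, 9.02 and 8.97 with CycC, 8.97, 8.88, 8.94 and 8.83 with Med12 and 8.91, 8.94, 8.93 and 9.08 with Med13, against 8.72 to 8.90 in controls (median 8.81). Its Cdk8, CycC and Med13 arrays all lay above the controls, and its Med12 arrays overlapped them. It rose by 0.25 ± 0.05 with Cdk8 dsRNA (adjusted p = 0.00124), by 0.17 ± 0.04 with CycC (adjusted p = 0.00241) and by 0.16 ± 0.04 with Med13 (adjusted p = 0.0038), and stood at 0.10 ± 0.04 with Med12 (adjusted p = 0.0514). Nup188 was thus the inner ring gene that also passed as higher with Med13 dsRNA. With Med12 dsRNA it did not pass in 27 of 33 alternatives and passed in the others. Its difference between Med12 and Med13 dsRNA, -0.06 ± 0.04, did not pass.

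Nup154 was at 10.63 and 10.69 on the Cdk8 arrays, between 10.68 and 10.70 on the CycC arrays, between 10.44 and 10.52 on the Med12 arrays and between 10.43 and 10.61 on the Med13 arrays, against 10.33 to 10.53 in controls (median 10.49). Again the Cdk8 and CycC arrays lay above all others, with rises of 0.20 ± 0.05 (adjusted p = 0.013) and 0.23 ± 0.04 (adjusted p = 0.00033). Without either of the Cdk8 arrays the Cdk8 call for Nup154 was lost, with an adjusted p of up to 0.172. The fly has a pair of Nup93 genes, and they did not give the same result. Nup93-1 rose with CycC dsRNA by 0.15 ± 0.04 (adjusted p = 0.0117, lost with Luc controls alone), whereas Nup93-2 stood between -0.03 ± 0.05 and 0.00 ± 0.04 in the 4 knockdowns. The difference between these genes was not tested.

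Nup35, known in vertebrates for binding the nuclear membrane, was the member that moved in opposite directions. It was at 11.75 and 11.67 with Cdk8 dsRNA, at 11.69, 11.71, 11.82 and 11.78 with CycC, at 11.41, 11.43, 11.36 and 11.35 with Med12 and at 11.31, 11.43, 11.44 and 11.38 with Med13, against 11.51 to 11.62 in controls (median 11.58). All Cdk8 and CycC arrays lay above every control, and all Med12 and Med13 arrays below every control. It rose by 0.13 ± 0.04 with Cdk8 dsRNA (adjusted p = 0.0421) and by 0.17 ± 0.03 with CycC (adjusted p = 0.000827). It fell to 87.2% of controls with Med12 dsRNA (-0.20 ± 0.03, adjusted p = 8.2e-05) and to 87.4% with Med13 (-0.19 ± 0.03, adjusted p = 0.000131). The Cdk8 call was lost without either Cdk8 array and in 6 other alternatives, while the other 3 calls were kept in every alternative run.

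**Figure D3:**
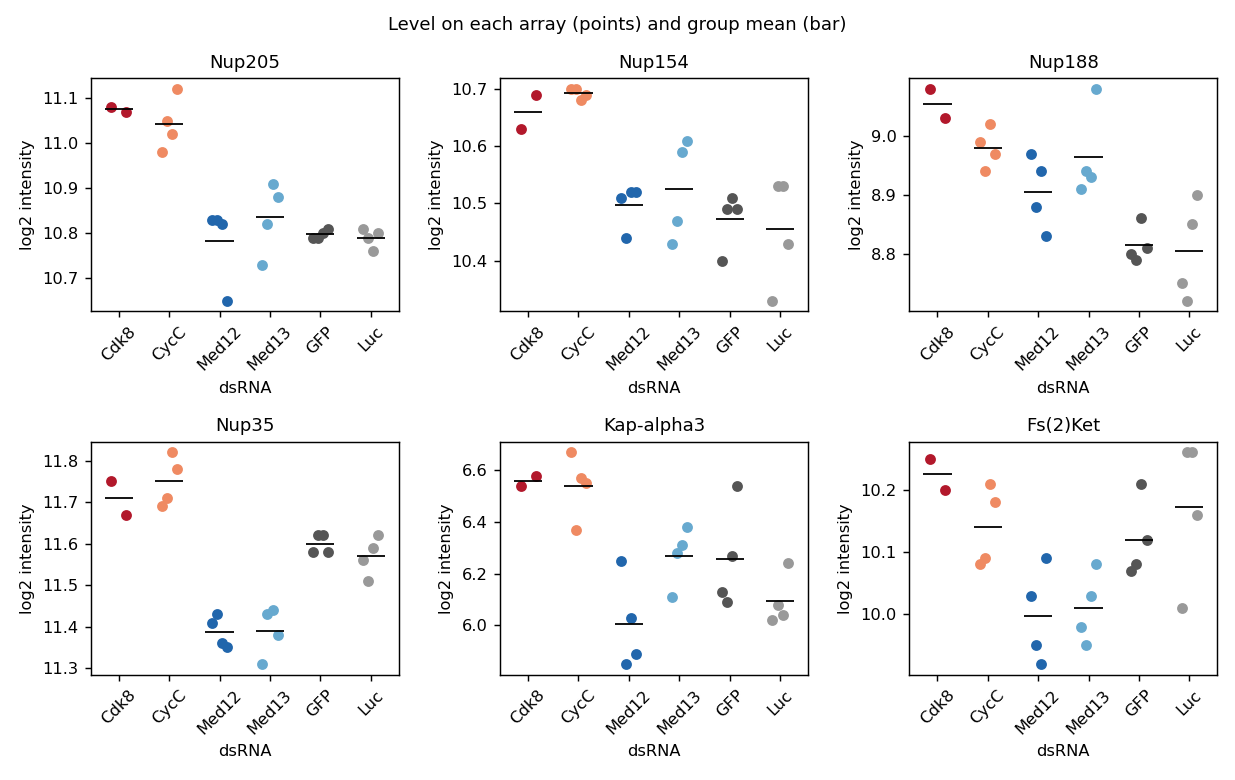
Log2 intensity of 6 members on each of the 22 arrays (points), with the group mean (bar), for the 4 knockdowns and the GFP and Luc controls. All Cdk8 and CycC points of Nup205 and Nup154 lie above every point of the other groups, Nup35 is above controls there and below them in the Med12 and Med13 arrays, and Kap-alpha3 has 1 GFP array, at 6.54, that reaches the Cdk8 and CycC arrays.

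Of the 7 measured genes of the outer ring 2 rose with Cdk8 dsRNA (against 10.6% of all tested genes) and 2 with CycC dsRNA (13.4%). None passed with Med12 or Med13 dsRNA, where 41.9% and 32.2% of all tested genes passed in either direction. Their median difference was 0.16 with Cdk8 dsRNA, as in the inner ring, 0.10 with CycC, 0.00 with Med12 and 0.04 with Med13, and the rings were not tested against each other. Nup98-96 encodes one precursor that is cut into Nup96, a Y complex protein, and Nup98, a repeat protein that also binds mRNA export factors. Its Cdk8 arrays read 10.57 and 10.42, its CycC arrays 10.40, 10.66, 10.50 and 10.46, its Med12 arrays 10.36, 10.37, 10.33 and 10.22 and its Med13 arrays 10.21, 10.34, 10.45 and 10.35, against 10.14 to 10.41 in controls (median 10.30). The CycC 1 array overlapped the controls, and the rise with CycC dsRNA was 0.21 ± 0.06 (adjusted p = 0.00964), but adjusted p = 0.0598 without the CycC 2 array. The difference with Cdk8 dsRNA was of like size, 0.20 ± 0.07, and did not pass (adjusted p = 0.0604). That held in 28 of 33 alternatives, and in the others it passed.

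The WD-repeat protein gene Nup43 rose with Cdk8 dsRNA by 0.16 ± 0.05 (adjusted p = 0.0206) and with CycC by 0.10 ± 0.04 (adjusted p = 0.0438), the first call being lost with GFP controls alone and without either Cdk8 array (adjusted p up to 0.181) and the second in 18 alternatives. Nup75, the fly counterpart of Nup85, rose with Cdk8 dsRNA by 0.17 ± 0.04 (adjusted p = 0.00807) and stood at 0.09 ± 0.03 with CycC (adjusted p = 0.0564). Its Cdk8 call was lost with GFP controls alone and without the Cdk8 2 array (adjusted p up to 0.183). With CycC dsRNA Nup75 did not pass in 25 of 33 alternatives and passed in the others. The scaffold genes Nup107 and Nup133 differed by 0.15 ± 0.07 and 0.19 ± 0.08 with Cdk8 dsRNA and by 0.13 ± 0.05 and 0.12 ± 0.06 with CycC, without passing. Nup37 and Nup44A, the fly counterpart of Seh1, stood between -0.06 ± 0.05 and 0.09 ± 0.04 in all 4 knockdowns, and neither passed.

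On the cytoplasmic side of the pore Nup358 changed and the other members did not pass. Nup358, the counterpart of vertebrate RanBP2, forms the cytoplasmic filaments and, in vertebrates, binds Ran and RanGAP. It was at 11.13 and 10.93 with Cdk8 dsRNA, at 10.86, 11.17, 11.01 and 10.98 with CycC, at 10.85, 10.71, 10.86 and 10.65 with Med12 and at 10.75, 10.81, 10.84 and 10.92 with Med13, against 10.68 to 10.95 in controls (median 10.79). The Cdk8 2 and CycC 1 arrays overlapped the controls. It rose by 0.22 ± 0.08 with Cdk8 dsRNA (adjusted p = 0.0425) and by 0.20 ± 0.06 with CycC (adjusted p = 0.016). The first call was lost in 13 alternatives, the second with GFP controls alone and without the CycC 2 array. Nup214, which anchors mRNA export factors, stood at 0.15 ± 0.07 with Cdk8 dsRNA, and the export factor Rae1 between -0.04 ± 0.03 and -0.01 ± 0.04 in the 4 knockdowns.

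In the nuclear basket, Nup153 rose with Cdk8 dsRNA by 0.18 ± 0.06 (adjusted p = 0.0437), a call lost in 17 alternatives, both scalings of the arrays among them. Its 2 Cdk8 arrays, at 9.70 and 9.75, lay above controls at 9.44 to 9.65. Nup50, a basket protein that helps release importin cargo, did not pass in any knockdown. Neither did the channel proteins Nup54 and Nup62, with differences between -0.12 ± 0.05 and 0.06 ± 0.05. Nup54 was close with Med13 dsRNA (-0.12 ± 0.05, adjusted p = 0.0555 by limma). There it did not pass in 26 of 33 alternatives and passed in the others, both scalings of the arrays among them.

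Among the Ran cycle genes RanGAP changed and Ran did not pass. RanGAP, which makes Ran hydrolyse its GTP in the cytoplasm, was at 11.19 and 11.28 with Cdk8 dsRNA, at 11.23, 11.14, 11.35 and 11.22 with CycC, at 11.18, 11.18, 11.11 and 11.14 with Med12 and at 11.06, 11.12, 11.24 and 11.21 with Med13, against 10.99 to 11.12 in controls (median 11.09). All 6 Cdk8 and CycC arrays lay above the controls, while Med12 and Med13 arrays overlapped them. The rise was 0.16 ± 0.05 with Cdk8 dsRNA (adjusted p = 0.0312, lost without either Cdk8 array and with GFP controls alone) and 0.16 ± 0.04 with CycC (adjusted p = 0.00579). Ran read 12.56 and 12.57 with Cdk8 dsRNA, 12.44 to 12.52 with CycC, 12.32 to 12.51 with Med12 and 12.36 to 12.56 with Med13, against 12.31 to 12.59 in controls (median 12.49). Those ranges overlapped in every group. Ntf-2, which returns Ran to the nucleus, read 11.75 and 11.64 with Cdk8 dsRNA, 11.59 to 11.69 with CycC, 11.43 to 11.58 with Med12 and 11.54 to 11.70 with Med13, against 11.50 to 11.64 in controls. It stood at 0.12 ± 0.05 with Cdk8 dsRNA and passed in no knockdown.

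The 3 importin alpha genes, whose proteins bind the classical nuclear localisation signal, did not pass in the same knockdowns. The differences between these genes were not tested. Kap-alpha3 had the largest differences of all members. It was at 6.54 and 6.58 with Cdk8 dsRNA, at 6.67, 6.37, 6.57 and 6.55 with CycC, at 6.25, 5.85, 6.03 and 5.89 with Med12 and at 6.11, 6.28, 6.31 and 6.38 with Med13, against 6.02 to 6.54 in controls (median 6.11). The GFP 4 array, at 6.54, was the control that reached the Cdk8 and CycC arrays, and the next highest control was at 6.27. Kap-alpha3 rose to 130% of controls with Cdk8 dsRNA (0.38 ± 0.11, adjusted p = 0.015) and to 129% with CycC (0.36 ± 0.08, adjusted p = 0.00247). The Cdk8 call was lost with GFP controls alone and without either Cdk8 array (adjusted p up to 0.133), and the CycC call was kept in every alternative. Differences with Med12 and Med13 dsRNA were -0.17 ± 0.08 and 0.09 ± 0.08 and did not pass. Its spread within groups, an SD of 0.134, was the widest of the 30 members.

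Pen, the importin alpha known in flies as Pendulin, was at 13.48 and 13.47 with Cdk8 dsRNA, at 13.41, 13.46, 13.57 and 13.52 with CycC, at 13.46, 13.43, 13.40 and 13.44 with Med12 and at 13.46, 13.48, 13.52 and 13.49 with Med13, against 13.27 to 13.45 in controls (median 13.39). The Cdk8 and Med13 arrays lay above the controls and the others overlapped them. Pen rose by 0.12 ± 0.04 with CycC dsRNA (adjusted p = 0.0173) and by 0.12 ± 0.04 with Med13 (adjusted p = 0.0159), and both calls were lost with GFP controls alone. The CycC call was also lost without the CycC 3 or the CycC 4 array and with only the groups compared in the fit, and the Med13 call without the Med13 3 array. Kap-alpha1 was at 9.51 and 9.29 with Cdk8 dsRNA, 9.31 to 9.46 with CycC, 9.15 to 9.32 with Med12 and 9.22 to 9.32 with Med13, against 9.17 to 9.46 in controls (median 9.34). All its groups overlapped and it passed in no knockdown.

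The 3 beta karyopherins carry cargo directly or with importin alpha. None passed with Cdk8 or CycC dsRNA, where 18.7% and 24.2% of all tested genes did. With Med12 and Med13 dsRNA the same 1 fell, against 15.5% and 11.2% of all tested genes. This was Fs(2)Ket, the fly importin beta. It read 10.25 and 10.20 with Cdk8 dsRNA, 10.08, 10.09, 10.21 and 10.18 with CycC, 10.03, 9.95, 9.92 and 10.09 with Med12 and 9.98, 9.95, 10.03 and 10.08 with Med13, against 10.01 to 10.26 in controls (median 10.14). Every group overlapped the controls. The fall was -0.15 ± 0.05 with Med12 dsRNA (adjusted p = 0.0156) and -0.14 ± 0.05 with Med13 (adjusted p = 0.031). A second Fs(2)Ket probe set, with a lower mean, differed by 0.17 ± 0.04 with Med12 dsRNA, the opposite sign, and by -0.01 ± 0.04 with Med13. With Cdk8 and CycC dsRNA it differed by 0.17 ± 0.06 and 0.18 ± 0.04, where the probe set used for the tests stood at 0.08 ± 0.06 and -0.01 ± 0.05, so these values also depended on the probe set. The mean of both probe sets left no call in either knockdown, so with Med12 dsRNA the direction depended on the probe set. The Med12 call was also lost with GFP controls alone and without the Med12 2 or the Med12 3 array, and the Med13 call in 9 further alternatives, among them GFP controls alone and the loss of the Med13 1, Med13 2 or Med13 3 array.

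Tnpo, which imports RNA-binding proteins, was at 10.25 and 10.18 with Cdk8 dsRNA, 9.81 to 10.12 with CycC, 9.71 to 9.94 with Med12 and 9.77 to 10.05 with Med13, against 9.86 to 10.26 in controls (median 9.97). The exportin gene emb, whose product takes proteins with a leucine-rich signal out of the nucleus, read 12.14 and 12.14 with Cdk8 dsRNA, 12.10 to 12.27 with CycC, 11.96 to 12.15 with Med12 and 11.97 to 12.19 with Med13, against 12.03 to 12.19 in controls (median 12.10). Both overlapped the controls in every group and passed in no knockdown. Nxt1, the partner of the mRNA carrier Nxf1, rose with CycC dsRNA by 0.18 ± 0.04 (adjusted p = 0.00183). Its CycC arrays, at 12.17, 12.04, 12.12 and 12.14, lay above controls at 11.88 to 12.01. With Cdk8 dsRNA Nxt1 stood at 0.11 ± 0.05 (adjusted p = 0.127), although both arrays lay above the controls.

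The mean of the Med12 and Med13 groups was also set directly against the mean of the Cdk8 and CycC groups, a comparison in which the controls drop out. Of the 30 members 16 were lower in the Med12-Med13 pair, where 22.2% of all tested genes were, and none was higher, where 26.9% of all tested genes were. At an unadjusted p under 0.05 by limma 19 members were lower and 0 higher, where 3282 of the 5961 tested genes differed in either direction. The median difference over the 30 was -0.12, beside 0.01 over all tested genes. By place, 4 of the 6 inner ring genes, 3 of the 7 outer ring genes and 6 of the 10 transport genes were lower. The balance over all tested genes shifted with the scaling, with 1602 higher and 1326 lower as deposited but 1451 higher and 1574 lower with the median of every array set equal, whereas the members had 21 lower and none higher on that scale.

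Kap-alpha3 showed the largest of these differences, at 75.2% of the Cdk8-CycC level (-0.41 ± 0.07, adjusted p = 0.000123). Its Med12 and Med13 arrays lay between 5.85 and 6.38, against 6.37 to 6.67 on the Cdk8 and CycC arrays, so the sets touched at 1 array each. Nup35 followed at 78.8% (-0.34 ± 0.03, adjusted p = 9.96e-09), with Med12 and Med13 arrays at 11.31 to 11.44, against 11.67 to 11.82 on Cdk8 and CycC arrays. Those sets did not overlap, nor did the ones of Nup205 (10.65 to 10.91 against 10.98 to 11.12, -0.25 ± 0.03, adjusted p = 5.2e-06). Tnpo differed by -0.23 ± 0.07 (adjusted p = 0.0113) and Nup358 by -0.22 ± 0.05 (adjusted p = 0.00204), both with overlapping arrays. The Tnpo call was lost without the Cdk8 1 array.

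All arrays of the Med12-Med13 pair lay below all those of the Cdk8-CycC pair for 6 of the 30 members, where 9.93% of all tested genes showed this. Besides Nup35 and Nup205 these were Nup153 (-0.20 ± 0.04), Nxt1 (-0.19 ± 0.03), Nup43 (-0.18 ± 0.03) and Nup154 (-0.17 ± 0.04). The other 7 that were lower were Fs(2)Ket, Nup98-96, Nup54, Nup75, Kap-alpha1, Nup93-1 and Ntf-2, with differences between -0.18 and -0.12. Without the Cdk8 1 array Kap-alpha1, Ntf-2 and Nup98-96 lost the call (adjusted p up to 0.214), as did Nup93-1 without the Cdk8 2 array (adjusted p = 0.155). The second Fs(2)Ket probe set stood at -0.09 ± 0.04. For Nup54, Kap-alpha1, Ntf-2 and Tnpo no knockdown had passed against the controls. The 14 that did not pass ranged from -0.11 ± 0.06 (Nup133) to 0.03 ± 0.03 (Nup62), with Pen at -0.02 ± 0.03, Rae1 at -0.01 ± 0.03 and Ran at -0.08 ± 0.04 among them.

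**Figure D4:**
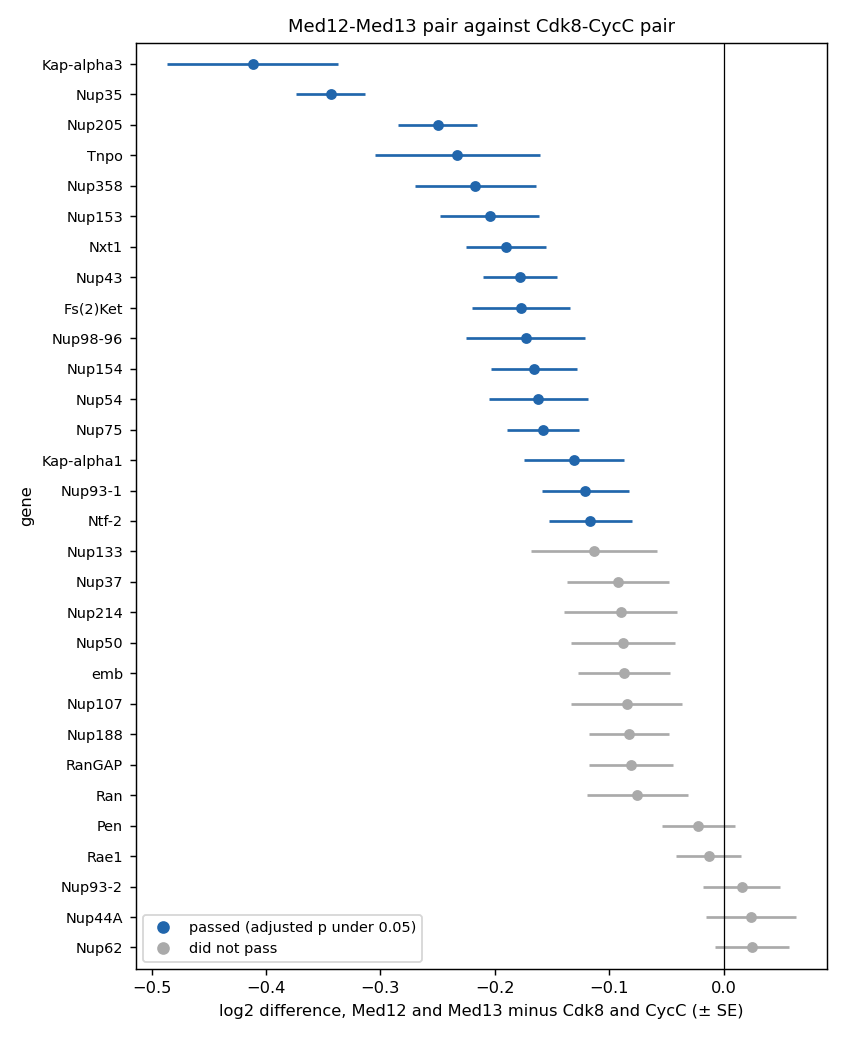
Log2 difference between the mean of the Med12 and Med13 groups and the mean of the Cdk8 and CycC groups for each of the 30 members, with its SE as the bar. The 16 that passed are in blue, from Kap-alpha3 at -0.41 to Ntf-2 at -0.12, and all lie left of 0.

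Within the pairs no member passed. Between Med12 and Med13 dsRNA 0 of 30 members did by limma, where 0.872% of all tested genes did. An unadjusted p under 0.05 by limma was reached by 660 of the 5961 tested genes and by 2 members. These 2, named after their values were seen, were Kap-alpha3 (-0.26 ± 0.09) and Ntf-2 (-0.11 ± 0.05). Between Cdk8 and CycC dsRNA 0 members passed, against 0.101%, with 0 at the unadjusted level, where 290 of all tested genes stood. However, the 2 Cdk8 arrays leave wide errors, such as 0.22 ± 0.11 for Tnpo. Between GFP and Luc dsRNA 0 passed, against 0.0336%. Under the unadjusted level were 331 of all tested genes and 1 member, Nup93-2 (0.12 ± 0.04), also named after its value was seen.

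Other genes of the pore and of transport were taken from lists chosen by name. Of 7 other nuclear pore genes 1 rose with Cdk8 dsRNA (against 10.6% of all tested genes), 1 with CycC (13.4%) and none with Med12 (26.5%), where 1 fell (15.5%), while with Med13 1 rose (21.0%) and 1 fell (11.2%). The one that rose was Gle1, an mRNA export factor, at 0.16 ± 0.04 with Cdk8 dsRNA (adjusted p = 0.0062), 0.15 ± 0.03 with CycC (adjusted p = 0.000949) and 0.09 ± 0.03 with Med13 (adjusted p = 0.0307). The one that fell was Sec13, shared by the outer ring and the COPII vesicle coat, at -0.26 ± 0.04 with Med12 dsRNA (adjusted p = 7.49e-05) and -0.17 ± 0.04 with Med13 (adjusted p = 0.00399). In the comparison of the pairs 3 of the 7 were lower (against 22.2% of all tested genes) and none higher (26.9%), including Sec13 (-0.30 ± 0.04) and mbo, the fly Nup88 (-0.20 ± 0.06).

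A list of 13 other measured karyopherin and Ran cycle genes also held nxf2 and RanBPM, which are neither. Of the 13, 3 rose with Cdk8 dsRNA (against 10.6% of all tested genes) and 3 with CycC (13.4%). With Med12 dsRNA 6 rose (26.5%), nxf2 and RanBPM among them, and 1 fell (15.5%). With Med13 dsRNA 2 rose (21.0%) and 1 fell (11.2%). Rcc1, which loads Ran with GTP, rose by 0.21 ± 0.06 with Cdk8 dsRNA (adjusted p = 0.0128) and by 0.21 ± 0.04 with CycC (adjusted p = 0.00122). The importin 7 gene msk fell, with differences of -0.20 ± 0.03 with Med12 dsRNA (adjusted p = 8.96e-05) and -0.15 ± 0.03 with Med13 (adjusted p = 0.00249). The exportin gene Ranbp16 rose by 0.20 ± 0.06 with Med13 dsRNA (adjusted p = 0.0105) and by 0.18 ± 0.06 with Med12 (adjusted p = 0.0147). Between the pairs 4 of the 13 were lower with Med12 and Med13 dsRNA (against 22.2% of all tested genes) and none higher (26.9%), msk by -0.24 ± 0.03 and Rcc1 by -0.21 ± 0.04.

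Of 15 measured genes of mRNA export and the THO and TREX-2 complexes 1 rose (against 10.6% of all tested genes) and 1 fell (8.07%) with Cdk8 dsRNA, and 5 rose (13.4%) and 1 fell (10.9%) with CycC. With Med12 dsRNA 3 rose (26.5%) and with Med13 3 rose (21.0%). That was 20% of the list in each, near the share over all tested genes with Med13. Between the pairs 4 were lower with Med12 and Med13 dsRNA (against 22.2% of all tested genes) and 1 was higher (26.9%), PCID2 of the TREX-2 complex (0.18 ± 0.05, adjusted p = 0.00472). Dbp80, a DEAD-box helicase gene, rose in all 4 knockdowns, by 0.44 ± 0.07 with Cdk8 dsRNA, 0.37 ± 0.06 with CycC, 0.55 ± 0.06 with Med12 and 0.45 ± 0.06 with Med13 (adjusted p of 0.000133 or less in each). The TREX-2 gene xmas rose with CycC dsRNA (0.26 ± 0.07, adjusted p = 0.0103), and PCID2 with Med12 (0.17 ± 0.05, adjusted p = 0.0152) and Med13 (0.18 ± 0.05, adjusted p = 0.0153).

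Of 9 measured nuclear envelope and lamina genes 3 rose with Cdk8 dsRNA (against 10.6% of all tested genes), and 3 rose (13.4%) and 1 fell (10.9%) with CycC. With Med12 dsRNA 3 rose (26.5%) and 1 fell (15.5%), and with Med13 2 rose (21.0%) and 1 fell (11.2%). Between the pairs 3 were lower with Med12 and Med13 dsRNA (against 22.2% of all tested genes) and 1 was higher (26.9%), Torsin (0.23 ± 0.04, adjusted p = 1.6e-05). The lamin B receptor gene LBR rose by 0.36 ± 0.07 with Cdk8 dsRNA (adjusted p = 9e-04) and by 0.22 ± 0.05 with CycC (adjusted p = 0.00485), and Ote, an inner membrane protein gene, by 0.27 ± 0.05 (adjusted p = 0.00135) and 0.22 ± 0.04 (adjusted p = 0.000507). Torsin, an ATPase gene of the envelope lumen, rose by 0.17 ± 0.04 with Med12 dsRNA (adjusted p = 0.00112) and by 0.16 ± 0.04 with Med13 (adjusted p = 0.0028), and fell with CycC (-0.12 ± 0.04, adjusted p = 0.034).

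A summed level of 4 germline markers was higher with Cdk8 and CycC dsRNA, through bam and aub. The 4 genes vas, nanos, bam and aub summed to intensities of 176 on both Cdk8 arrays, 123 to 171 on the CycC arrays, 61.1 to 71.0 on the Med12 arrays, 60.0 to 66.6 on the Med13 arrays and 64.2 to 73.3 in controls. The defining markers vas and nanos were below the floor on all 22 arrays, at log2 2.5 to 2.74 and 2.94 to 3.02. The sums therefore reflect bam (log2 2.95 to 6.01, over the floor on 6 arrays) and aub (5.19 to 6.67). The part of the germline genes in the members' result was not tested.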

How the data were processed

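Messenger RNA was measured on 22 arrays from 4 µg of total RNA each. The deposited intensity per probe set and array had been made by the authors with GCRMA, per the submitters' processing notes, which corrects background, normalizes between arrays and summarises probes. Its version, settings and annotation build are not given in the sources used here. Deposited values were on a linear scale from 2.02 to 70939, so log2 was taken. Normalization between arrays hides any uniform change.

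Of 18952 probe sets 183 controls were left out, and 13647 had 1 symbol in GEO's platform annotation. Those at log2 4 or more on at least 2 arrays were kept, the one with the highest mean standing for its gene, which left 5961 genes. A linear model with a mean for every group used the 22 arrays together (limma 3.58.1, R 4.3.3, 16 residual degrees of freedom). Tests against controls used the average of both control groups and were two-sided, with Benjamini-Hochberg adjustment over all genes. The fit was tested on simulated data. The number of arrays limits the precision, and the median SD within groups was 0.0793 (log2).

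Groups come from the sample titles. The members and gene lists were chosen with earlier results of these data known. Per-array values are given for the 5 members with the largest difference among those that passed in each knockdown and between the pairs, and for importin alpha, beta karyopherin and Ran genes. Those of Nup153 and Nxt1 were added after their values were seen. From each other list the text names the 3 genes with the largest difference that passed. Alternatives changed the floor, scaling, controls, probe set rule, arrays fitted, variance moderation, array weights, replicate block and arrays left out.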

Additional observations from a re-analysis of the deposited data

Results flagged for a closer look

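In groups of 4 arrays, 1 array lay far from the other 3 in 4 of 150 checks of a member in a group, where chance gives about 1 in 20. Nup205 was at 10.65 on the Med12 4 array, against 10.82 to 10.83 on the other 3, a gap of 0.958 of the group's range. Nup154 was at 10.44 on the Med12 2 array, against 10.51 to 10.52 (0.859). Among controls, emb was at 12.03 on the Luc 2 array, against 12.10 to 12.11 (0.919), and Nup93-2 at 8.48 on the Luc 4 array, against 8.42 to 8.43 (0.87). The Nup205 comparisons kept their calls without the Med12 4 array.

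Nup35 differed between knockdowns, lower than controls with Med12 and Med13 dsRNA and higher with Cdk8 and CycC dsRNA. The direct test of the pairs gave -0.343 on the log2 scale.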

How the results depend on the processing

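Besides the leave-one-out fits, 11 alternatives were run for the comparisons with controls and 9 for the others. The count of members that passed with Cdk8 dsRNA, 10, was 3 with GFP controls alone and between 3 and 11 with 1 array left out. The Med12 count, 2, was 4 after median centring, 5 after quantile normalization and 1 with the mean of probe sets, and between 1 and 3 with 1 array left out, at 1 without the Med12 2 or the Med12 3 array. The Med13 count, 4, was 2 with GFP controls alone and between 3 and 5 with 1 array left out. The CycC count, 12, ran from 9 to 13 over all alternatives, and the count between the pairs, 16, from 12 to 23. Fs(2)Ket with Med12 dsRNA changed sign with the mean of probe sets (0.0095), the second probe set having the opposite sign. Over all genes the Med13 balance of 1249 higher and 669 lower was 943 and 911 after median centring. No comparison within the pairs or between the controls gave a member in any alternative. The median differences moved by less than the spread between replicates, but the Med13 median, 0.0188, changed sign, running from -0.0134 to 0.0498 over all alternatives. Of the calls against controls, 2 of 10 with Cdk8 dsRNA, 7 of 12 with CycC, 1 of 2 with Med12 and 2 of 4 with Med13 were kept under every alternative, as were 11 of 16 between the pairs. The check of the replicate numbers asked that every same-number pair of arrays have deviations correlated over 0.1. Of 50 such pairs 25 were over 0.1, and 12 of 22 arrays correlated best with their own number. The check was thus not met, but it does not show that arrays of the same number were unrelated. Med13 with GFP was the only group pair with all 4 pairs over 0.1 (0.103 to 0.276). Other group pairs reached it in part, such as GFP with Luc (-0.0305 to 0.29) and Med13 with Luc (-0.0839 to 0.239). With a replicate block the counts were 14 with Cdk8 dsRNA, 13 with CycC, 3 with Med12, 5 with Med13 and 23 between the pairs. The calls gained by the block with Cdk8 dsRNA included Nup107, Nup133, Nup214, Nup93-1 and Pen.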
